A study of Drosophila melanogaster with 14 samples.

Results

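The genes described here encode the nuclear-encoded subunits of the mitochondrial respiratory chain and of ATP synthase. They were measured in whole fruit flies (Drosophila melanogaster) carrying sesB1, a recessive point mutation in the X-linked gene for the major adenine nucleotide translocase, and in wild-type (WT) flies. Members were chosen by gene symbol: those starting with ND-, SdhA to SdhD, UQCR-, COX with a digit or ATPsyn, together with Cyt-c1 and Cyt-c-p, wherever an Affymetrix Drosophila 2.0 probeset was annotated to that 1 gene. This gave 81 probesets for 73 genes, of 18769 probesets and 11982 genes with a probeset of their own. The members were split by name into 60 core probesets for 52 genes and 21 probesets for 21 paralogues, whose symbol is that of another respiratory gene followed by L, such as COX4L for COX4. The core probesets comprised 30 for complex I, 3 for complex II, 5 for complex III, 10 for complex IV and 12 for ATP synthase (complex V). A further 19 genes with such symbols had no probeset of their own and were not analysed here, among them Cyt-c-p (cytochrome c), SdhA, UQCR-C1, UQCR-C2, ND-49 and the mitochondrially encoded COX1, COX2 and COX3.

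There were 14 arrays: 4 of sesB1 females, 3 of WT females, 4 of sesB1 males and 3 of WT males. All flies were an F1 generation from Canton S mothers and Oregon R fathers, in which both parents carried sesB1 or neither did, so that sesB1 females were homozygous and sesB1 males hemizygous for the mutation. Females were virgins, RNA came from pools of 30 flies kept at 25 °C, and the sample labels and the study's methods give an age of 2 days, whereas the design text gives 1 day. The study asked how gene expression responds to a shortage of ANT function, separately in each sex, and the whole fly was the sample, so that fewer cells of one type and less RNA per cell cannot be told apart.

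Values were log2 signals from which the median of the 14 arrays had been taken off in each probeset, and a value of 0 is therefore the middle of the series for that probeset. They show differences between arrays but not how abundant one transcript is against another. Because sesB1 changes a base and not the amount of the gene, the level of the sesB transcript does not check the labels. Arrays of one group correlated at r between 0.855 and 0.982. Over 16 probesets of ovary and eggshell genes, the median was -2.86 in sesB1 male replicate 4, against -4.62 to -4.51 in the other sesB1 males, and -0.86 in WT male replicate 2, against -4.34 and -4.10 in the other WT males. Over 20 probesets of testis genes, it was -2.08 in sesB1 female replicate 4, against -3.00 to -2.53 in the other sesB1 females and -2.80 to -2.58 in WT females. These 3 arrays held more transcripts typical of the other sex. They were set aside in one alternative together with sesB1 female replicate 2, whose testis median of -2.53 lay just above the highest WT female. In the ovary genes sesB1 female replicate 3 was also low, at 0.86, against 1.91 to 2.21 in the other sesB1 females.

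The respiratory chain passes electrons from NADH, through complex I, or from succinate, through complex II, to ubiquinone and on through complex III, cytochrome c and complex IV to oxygen. Complexes I, III and IV pump protons out of the matrix, and complex V uses the return of protons to make ATP from ADP. The translocase encoded by sesB brings that ADP in and takes the ATP out. In flies, several subunits have a second gene copy used in the testis, where the sperm's large mitochondrial derivatives are built.

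In sesB1 females most core subunits lay slightly above their WT level, and few did so by enough to pass the test. Of the 60 core probesets, 14 were higher and 1 was lower in sesB1 than in WT females at an adjusted p under 0.05 (limma, Benjamini-Hochberg adjustment over 18769 probesets). These shares, 23.3% higher and 25.0% in either direction, stood beside 13.4% higher and 32.2% in either direction among all probesets tested. The log2 fold change was above 0 in 58 of the 60, against 50.9% of all probesets, and its median was 0.18, against 0.01 over all probesets. The increases that passed lay between 1.18-fold and 1.40-fold. The arrays of both genotypes did not overlap in 26 of the 60 probesets, beside 38.1% of all probesets tested, so that this count hardly sets the core apart. Without these 4 arrays (sesB1 female replicates 2 and 4, WT male replicate 2 and sesB1 male replicate 4), 16 were higher and 1 was lower. The count depended on single arrays: 3 probesets passed without WT female replicate 3, 4 without WT female replicate 1, 6 without sesB1 female replicate 2, 8 without sesB1 female replicate 1 and 8 without sesB1 female replicate 3. After quantile normalization 2 were higher and 1 was lower, and the median was 0.07.

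In males the shift was of similar size, and 21 core probesets were higher and 1 was lower in sesB1 than in WT males (limma, adjusted p under 0.05). That is 35.0% higher, against 11.1% of all probesets, and 36.7% in either direction, against 21.9%. The log2 fold change was above 0 in 55 of 60, against 47.3% of all probesets, with a median of 0.20, against -0.01. The increases lay between 1.16-fold and 1.49-fold, and 42 of the 60 did not overlap between the genotypes, beside 29.7% of all probesets. Quantile normalization left 20 higher and 1 lower. Which sex had more calls depended on the fit: a joint fit of all 4 groups gave 23 in females and 17 in males. Without the 4 arrays named above, 3 were higher and 1 was lower, with a median of 0.17. Of single arrays, leaving out WT male replicate 2, sesB1 male replicate 3 or sesB1 male replicate 4 gave 9 probesets each, and leaving out WT male replicate 1 gave 11. No core probeset rose by 1.5-fold or more in either sex.

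The per-array medians show how narrow the shift was. Over the 60 core probesets the median was 0.01, 0.04, 0.16 and -0.10 in the 4 sesB1 females, against -0.13, -0.11 and -0.22 in the 3 WT females. It was 0.09, 0.05, 0.19 and 0.21 in the 4 sesB1 males, against -0.07, -0.08 and -0.01 in the 3 WT males. The groups did not overlap in either sex, but the lowest sesB1 female array (replicate 4) lay next to the highest WT female array.

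**Figure D1:**
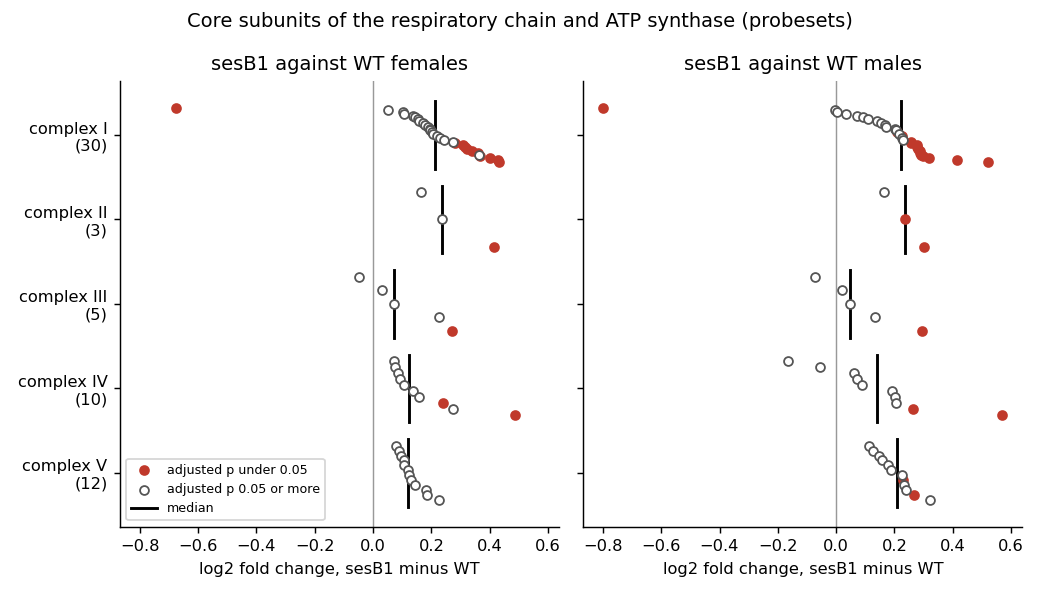
Log2 fold change (sesB1 minus WT) of each core probeset, by complex, in females (left) and males (right), with filled points at an adjusted p under 0.05 and a bar at the median of each complex; the number of probesets is in brackets. Nearly all points lie to the right of 0 and under 0.6, and 1 probeset of complex I (ND-B8) lies far to the left in both sexes.

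**Figure D2:**
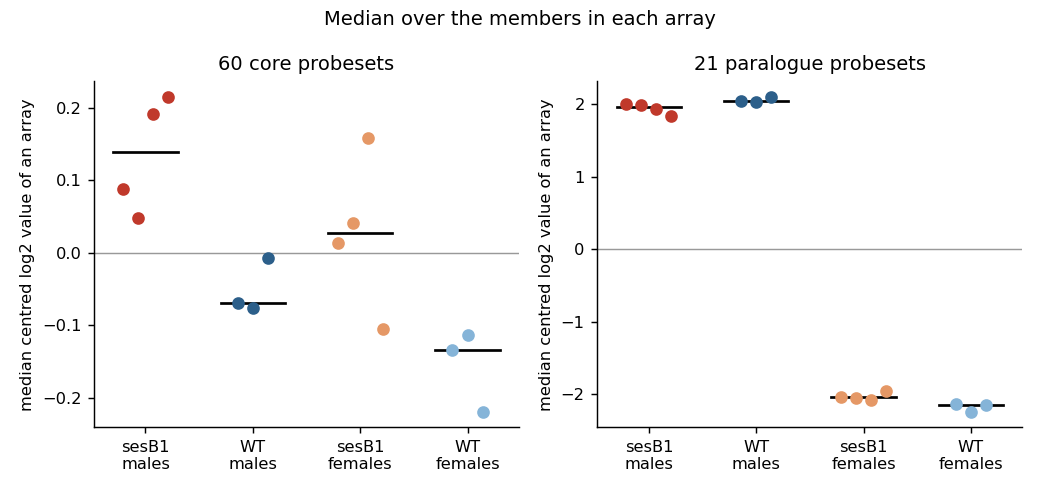
Median centred log2 value over the 60 core probesets (left) and the 21 paralogue probesets (right) in each array, with a bar at the median of each group. The core medians of sesB1 arrays lie above those of WT arrays within each sex, and the paralogue medians lie near 2 in males and near -2 in females of both genotypes.

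Both sexes shared 10 of the core probesets that passed, and all 10 moved the same way in females and males. They were ND-13B, ND-39, ND-51, ND-ACP, ND-B14.7, ND-MNLL and ND-PDSW of complex I and COX4 and COX7A of complex IV, which rose, and ND-B8 of complex I, which fell. The share of all probesets that passed in both sexes was not counted. The shared calls depend on the counts in each sex. These fell to 3 in females after quantile normalization and to 4 in males without the 4 arrays named above. A further 5 passed in females alone and 12 in males alone, and 33 passed in neither sex. Such a split does not show that the sexes differ. The difference was tested as the interaction of sex and genotype (the change in females minus the change in males), and it passed for 1 of 60 core probesets, against 27.6% of all probesets tested.

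Complex I, the entry point of electrons from NADH, holds 30 of the 60 core probesets and accounted for most of the calls. In females 10 of its 30 probesets were higher and 1 was lower, with a median log2 fold change of 0.21. That is 33.3% higher, against 13.4% of all probesets, and 36.7% in either direction, near the 32.2% of all probesets. In males 14 were higher and 1 was lower, with a median of 0.22. That is 46.7% higher, against 11.1% of all probesets, and 50.0% in either direction, against 21.9%. ND-39, the fly homologue of the human subunit NDUFA9, was 1.35-fold higher in sesB1 females (log2 fold change 0.43, standard error (SE) 0.10, adjusted p = 0.01) and 1.33-fold higher in sesB1 males (0.41, SE 0.07, adjusted p = 0.0021, limma). ND-ACP, the mitochondrial acyl carrier protein, which is part of complex I and also carries growing fatty acids, was measured by 3 probesets. All 3 rose in males, with log2 fold changes of 0.52 (adjusted p = 0.000887), 0.29 (0.0368) and 0.30 (0.0149). In females they were 0.36 (adjusted p = 0.0155), 0.14 (0.248) and 0.18 (0.27), and the first of these rose. ND-75, the large iron-sulfur subunit, rose in females (log2 fold change 0.40, adjusted p = 0.0202) and was at 0.23 in males, where it did not pass (adjusted p = 0.059). Single calls of these 3 genes were not followed through the alternatives. Without the 4 arrays named above, 3 core probesets were higher in males, COX7A among them, so the 3 ND-ACP probesets did not all pass there. In females 2 were higher after quantile normalization and 2 without WT female replicate 3, each time with COX7A, so these genes did not all pass there.

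ND-B8, the fly homologue of the human complex I subunit NDUFA2, went against the rest of its complex. Its values were -0.82, -0.56, -0.32 and -0.82 in the 4 sesB1 females, against 0.14, -0.03 and 0.03 in the 3 WT females. They were -0.12, -0.04, 0.21 and 0.09 in the 4 sesB1 males, against 0.85, 0.77 and 0.89 in the 3 WT males. All sesB1 arrays lay below all WT arrays of the same sex. The level in sesB1 was 0.627 of the WT level in females (log2 fold change -0.67, SE 0.13, adjusted p = 0.00357, limma) and 0.575 in males (log2 fold change -0.80, SE 0.09, adjusted p = 0.000143). It was the lone core probeset that changed by at least 1.5-fold in either sex, and it passed in both sexes under each normalization, fit, test and omission of arrays that was tried. ND-B8 was measured by 1 probeset, and the fall was not checked by another.

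Complex II (succinate dehydrogenase) also works in the citric acid cycle. SdhD, one of its membrane anchors, was at -0.06, 0.04, 0.08 and -0.23 in sesB1 females, against -0.44, -0.33 and -0.60 in WT females. It was 1.33-fold higher in sesB1 females (log2 fold change 0.41, SE 0.10, adjusted p = 0.0126, limma), a call lost without WT female replicate 3 (log2 fold change 0.34, adjusted p = 0.0516) and after quantile normalization (0.17, adjusted p = 0.305). In males SdhD was at 0.12, 0.07, 0.18 and 0.22 in sesB1, against 0.03, -0.03 and -0.05 in WT, and did not pass (log2 fold change 0.16, adjusted p = 0.124). The genotypes did not overlap in either sex.

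SdhB, the iron-sulfur subunit, and SdhC, the other anchor, were the complex II genes that rose in males. SdhC rose by 1.18-fold (log2 fold change 0.24, adjusted p = 0.0429, limma), a call near the threshold that was not followed through the alternatives. SdhB was at -0.0031, -0.02, 0.28 and 0.23 in sesB1 males, against -0.21, -0.14 and -0.19 in WT males, a 1.23-fold difference (log2 fold change 0.30, SE 0.09, adjusted p = 0.0365, limma). Its call was lost when any 1 of the WT male arrays, sesB1 male replicate 3 or sesB1 male replicate 4 was left out, with adjusted p of 0.0609 to 0.0979. In females SdhB was at 0.14, 0.21, 0.37 and 0.0048 in sesB1, against -0.02, 0.0031 and -0.15 in WT (log2 fold change 0.24, adjusted p = 0.111).

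In complex III, which passes electrons from ubiquinol to cytochrome c, the calls in the sexes fell on different genes. Cyt-c1, the haem-bearing subunit that hands electrons to cytochrome c, was at 0.23, 0.12, 0.23 and 0.24 in sesB1 males, against -0.13, -0.13 and -0.0041 in WT males. This was a 1.23-fold rise (log2 fold change 0.29, SE 0.07, adjusted p = 0.0126, limma), which did not pass without the 4 arrays named above (0.26, adjusted p = 0.0943). In females it was at 0.0041, 0.06, 0.10 and -0.07 in sesB1, against -0.24, -0.13 and -0.22 in WT, with no overlap, and it did not pass (log2 fold change 0.23, adjusted p = 0.0544).

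UQCR-Q, a small subunit near the ubiquinone-binding core, gave the one interaction among core probesets. It was at -0.22, -0.25, -0.16 and -0.45 in sesB1 females, against -0.48, -0.63 and -0.53 in WT females (log2 fold change 0.27, SE 0.09, adjusted p = 0.0495, limma), a call lost when any 1 female array other than sesB1 female replicate 4 was left out (adjusted p = 0.0839 to 0.163). In males it was at 0.19, 0.16, 0.27 and 0.22 in sesB1, against 0.22, 0.32 and 0.31 in WT (log2 fold change -0.07, SE 0.07, adjusted p = 0.532). The genotypes did not overlap in females and overlapped in males. The interaction was 0.34 (standard error 0.11, adjusted p = 0.0265), and it was lost with an adjusted p of 0.0524 to 0.0679 when WT female replicate 2, WT male replicate 2, WT male replicate 3 or sesB1 male replicate 2 was left out. After quantile normalization the change in females was -0.08 and the interaction -0.02, so that neither the direction nor the call held on that scale.

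Of the 10 probesets of complex IV (cytochrome c oxidase), the same 2 passed in each sex, both as higher (20.0%). Among all probesets 13.4% were higher and 32.2% passed in either direction in females, and 11.1% and 21.9% in males. COX7A, a small subunit of the membrane arm, gave the largest rise of any core member in both sexes. It was at 0.08, 0.01, 0.10 and -0.01 in sesB1 females, against -0.45, -0.50 and -0.38 in WT females. In males it was at 0.08, 0.09, 0.09 and 0.08 in sesB1, against -0.45, -0.45 and -0.55 in WT. The gap between the genotypes was several times the spread of arrays in either group. COX7A was 1.40-fold higher in sesB1 females (log2 fold change 0.49, SE 0.07, adjusted p = 0.00107, limma) and 1.49-fold higher in sesB1 males (0.57, SE 0.06, adjusted p = 0.000141), and both calls held under each normalization, fit, test and omission of arrays that was tried. COX4 rose by 1.18-fold in females (adjusted p = 0.0483) and by 1.20-fold among males (adjusted p = 0.026). The female call lay near the threshold, and the COX4 calls were not followed through the alternatives. The other 8 probesets, for COX5A, COX5B, COX7B, COX7C and COX8, lay between 0.07 and 0.27 in females and between -0.16 and 0.21 in males on the log2 scale.

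ATP synthase was the complex with no call in females, although all 12 of its probesets lay above 0 and their median of 0.12 was above that of complex III (0.07). Of all probesets tested, 13.4% were higher in sesB1 females and 32.2% passed in either direction. None of the 12 passed in females by limma or by Student's test after adjustment, with log2 fold changes of 0.08 to 0.23. At an unadjusted p under 0.05 it was 1 by limma and 2 by Student's test, and 2 passed in a joint fit of all 4 groups. The lowest adjusted p belonged to ATPsynC, which encodes the ring of c subunits that turns as protons pass, at -0.05, -0.02, 0.07 and -0.10 in sesB1 females, against -0.15, -0.18 and -0.31 in WT females (log2 fold change 0.19, adjusted p = 0.116). In males all 12 were above 0, between 0.11 and 0.32. Beside 11.1% of all probesets higher and 21.9% in either direction, 2 of the 12 passed as higher (16.7%). These were ATPsynE, a small membrane subunit, at 0.13, 0.15, 0.22 and 0.22 in sesB1 males, against -0.06, -0.07 and -0.01 in WT males (log2 fold change 0.23, SE 0.06, adjusted p = 0.0288), and ATPsynD, a subunit of the stator stalk. ATPsynD was at 0.09, 0.04, 0.25 and 0.27 in sesB1 males, against -0.11, -0.15 and -0.05 in WT males (log2 fold change 0.27, SE 0.08, adjusted p = 0.0363, limma). Both sets of arrays stood apart in males, and both calls were lost when WT male replicate 1, WT male replicate 2, sesB1 male replicate 3 or sesB1 male replicate 4 was left out, that of ATPsynD also without WT male replicate 3 and that of ATPsynE also without sesB1 male replicate 2 (adjusted p = 0.0551 to 0.103). ATPsynbeta, the catalytic subunit, had log2 fold changes of 0.32 and 0.23 in males by its 2 probesets and passed by neither (adjusted p = 0.11 and 0.255).

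Core genes on the X chromosome, which carries sesB itself, behaved like the others in size. Their 10 probesets had a median change of 0.21 (log2) in females, with 3 higher, and 0.19 in males, with 2 higher. The 50 autosomal probesets had medians of 0.18 and 0.20, with 11 higher and 1 lower in females and 19 higher and 1 lower in males.

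Muscle, which is rich in mitochondria, was tracked by 19 probesets of muscle genes. In females 10 of these were higher and none was lower in sesB1, beside 13.4% of all probesets higher and 18.9% lower. Their median change was 0.39 on the log2 scale. Their median over each array was -0.12 to 0.02 in sesB1 females, against -0.52 to -0.35 in WT females. In males 1 was higher and 4 were lower, beside 11.1% of all probesets higher and 10.8% lower, with a median of -0.08. The arrays overlapped at -0.01 to 0.19 in sesB1 males, against 0.12 to 0.24 in WT males. Those that rose by at least 1.5-fold in females were Strn-Mlck (2.20-fold by 1 of its 3 probesets), up (2.05-fold) and sls (1.68-fold and 1.72-fold by 2 of its 3 probesets), and up also rose in males (1.51-fold). The interaction passed for 12 of the 19, all positive, beside 27.6% of all probesets in either direction. The part of muscle genes in the core result was not tested. Ovary and eggshell genes moved the other way in females: 11 of 16 probesets, for 13 genes, were lower and 1 was higher in sesB1. Of all probesets, 18.9% were lower and 13.4% higher. The ovary median was -0.94, with per-array medians of 0.86 to 2.21 in sesB1 females, against 2.58 to 2.66 in WT females. Those lower by at least 1.5-fold were osk, bcd, bam, Cp16, Cp18, Cp36 and Cp38, and bam was at 0.206 of its WT level. In males Cp15 alone passed, at 0.237 of its WT level (log2 fold change -2.075, SE 0.50, adjusted p = 0.0141, limma). Cp15 was far lower in males than in females (log2 difference -6.82 in WT flies). WT male replicate 2 held more ovary transcripts than the other WT males, with a median of -0.86. The part of that array in the Cp15 call was not tested. The part of the ovary in the core result was not tested either.

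**Figure D3:**
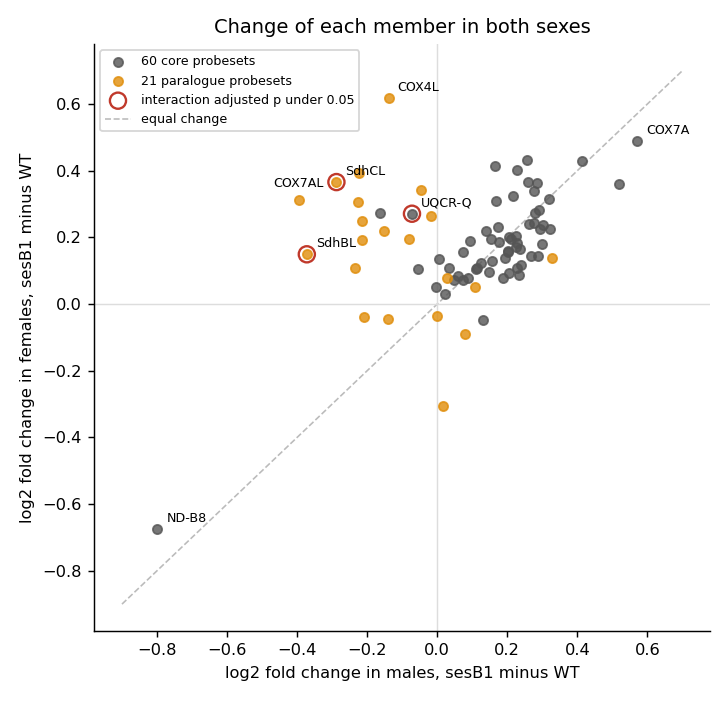
Log2 fold change (sesB1 minus WT) in females (vertical) against that in males (horizontal) for each of the 81 member probesets, core in grey and paralogues in orange, with rings at an interaction adjusted p under 0.05 and a dashed line of equal change. Core probesets gather above 0 in both sexes along the line, ND-B8 lies at -0.80 in males and -0.67 in females, and most paralogues lie left of 0 in males and above 0 in females.

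Between the sexes most core subunits differed by small amounts, and the number that passed depended on the scale. In sesB1 flies 16 core probesets were higher and 1 was lower in males than in females (limma, adjusted p under 0.05), a share of 28.3% beside 64.9% of all probesets tested, of which 21.3% were higher and 43.6% lower. In WT flies 15 were higher and 2 were lower, again 28.3%, beside 61.6%, of which 24.4% were higher and 37.2% lower. The median log2 difference (males minus females) of the core was 0.11 in sesB1 and 0.11 in WT flies, against -0.17 and -0.15 over all probesets. Centring each array on its own median moved the median of all probesets to -0.02 in sesB1 and -0.01 in WT flies, and on that scale 43 core probesets were higher and 1 lower in sesB1 males, beside 26.4% of all probesets higher and 54.5% in either direction. In WT males 31 were higher and 1 lower, beside 28.2% higher and 56.8% in either direction. Relative to the middle of all probesets, core subunits were thus higher in males more often than the values as deposited show. Without the 4 arrays named above, 6 were higher and 3 lower in sesB1 males, and 8 higher and 2 lower in WT males. Both counts of 17 depended on single arrays: in sesB1 flies 8 probesets passed without male replicate 3 or male replicate 4, 10 without female replicate 4 and 11 without female replicate 1, and in WT flies 7 passed without female replicate 1, 9 without male replicate 3 and 10 without male replicate 2.

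Among the core genes with the largest sex differences, UQCR-Q was 1.40-fold higher in males in sesB1 (adjusted p = 0.000198, limma) and 1.78-fold higher in WT flies (adjusted p = 1.81e-05). ND-B8 was 1.58-fold higher in sesB1 males (adjusted p = 0.000717) and 1.73-fold higher in WT males (adjusted p = 3.03e-05), so that the 4 sesB1 males lay at about the level of the 3 WT females. UQCR-11, another small subunit of complex III and chosen here after its values were seen, was lower in males. It was at -0.09, -0.11, -0.13 and -0.38 in sesB1 males, against 0.46, 0.33, 0.21 and 0.09 in sesB1 females, and at -0.28, -0.47 and -0.17 in WT males, against 0.26, 0.32 and 0.38 in WT females. In sesB1 flies its log2 difference was -0.45 (adjusted p = 0.00234, limma) and in WT flies it was -0.63 (adjusted p = 0.000426).

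The paralogues behaved in another way. All 21 were higher in males than in females, in sesB1 and in WT flies alike (limma, adjusted p under 0.05), beside 21.3% of all probesets higher in sesB1 males and 24.4% in WT males. The median log2 difference was 3.93 in sesB1 and 4.24 in WT flies. In WT flies 20 of the 21 were at least 2-fold and 14 at least 10-fold higher in males, with the exception of COX7AL2 (log2 difference 0.32, adjusted p = 0.0073), whose probeset can match more than 1 transcript by its suffix. In sesB1 flies 20 or 21 of the calls held under each normalization and fit and the omission of each array, and in WT flies all 21 did. The testis was not measured apart from the rest of the fly.

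COX4L, COX5BL and COX7AL, all paralogues of complex IV subunits, had the largest sex differences. COX4L was at 2.67, 2.52, 2.47 and 2.46 in sesB1 males, against -3.97, -3.14, -4.20 and -2.46 in sesB1 females. In WT flies it was at 2.66, 2.63 and 2.70 in males, against -4.09, -4.08 and -4.00 in females, a 105.7-fold difference (adjusted p = 2.33e-11, limma). The 2 sesB1 female arrays with the most testis transcripts, replicates 2 and 4, were also the highest for COX4L among females. COX5BL was at 2.82, 2.82, 2.59 and 2.64 in sesB1 males, against -3.48, -2.77, -3.68 and -2.59 in sesB1 females, and replicates 2 and 4 were again the highest females. In WT flies COX5BL was at 3.02, 2.90 and 2.91 in males, against -3.53, -3.38 and -3.65 in females, an 88.1-fold difference.

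The sex difference of a paralogue stood apart from that of the gene it is named for. For 14 paralogues the namesake had a core probeset, and the paralogue's difference was larger in all 14 in WT flies. The 13 core probesets of these 12 namesakes lay between -0.63 (UQCR-11) and 0.17 (COX4) on the same log2 scale in WT flies, while the paralogues lay between 0.32 and 6.72. By complex, the median difference of the paralogues in WT flies was 2.76 for complex I (5 genes), 4.84 for complex II (3), 4.19 for complex III (2), 6.06 for complex IV (7) and 3.17 for ATP synthase (4). The difference was smaller in sesB1 than in WT flies for 16 of the 21.

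**Figure D4:**
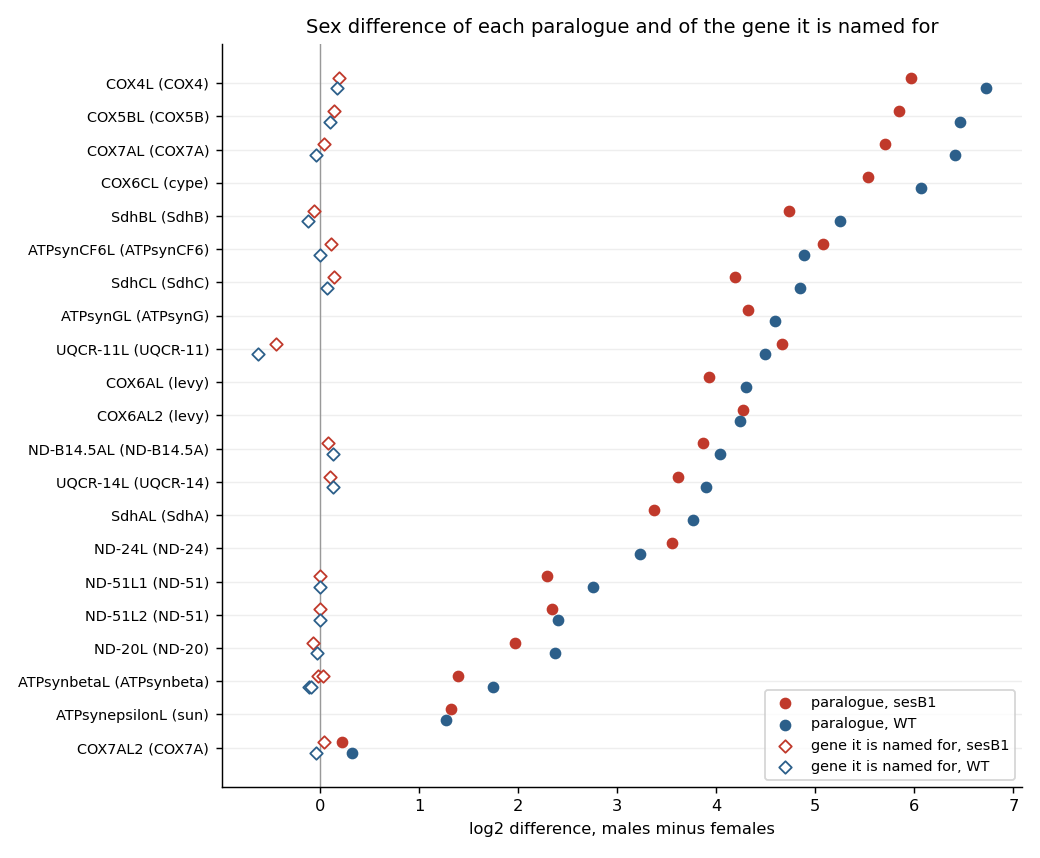
Log2 difference (males minus females) of each paralogue (filled circles) and of the core probesets of the gene it is named for (open diamonds, where one was measured), in sesB1 flies (red, upper) and WT flies (blue, lower), with the namesake in brackets. The paralogues run up to 6.72 (COX4L in WT flies), and the diamonds stay close to 0.

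Few paralogues changed between the genotypes. In females 1 of 21 was higher and none was lower in sesB1 (4.76% in either direction, beside 32.2% of all probesets), with a median of 0.19 on the log2 scale and 16 of 21 above 0. In males 1 was higher and 4 were lower (23.8% in either direction, beside 21.9%), with a median of -0.14 and 16 of 21 below 0. Without the 4 arrays named above, 1 was higher and 2 were lower in males, and 1 was higher and 1 was lower in females. Of single arrays, leaving out WT male replicate 1 gave 1 higher and 2 lower in males. The direction in males rested on the scale: after quantile normalization 6 paralogues were higher and none was lower in sesB1 males. The difference between the sexes itself, the interaction, passed for 2 of the 21, both positive, beside 27.6% of all probesets, and after quantile normalization for 3, all negative.

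SdhCL, the paralogue of the membrane anchor SdhC, changed in both sexes and in opposite directions. It was at -2.10, -2.00, -2.22 and -2.26 in sesB1 females, against -2.61, -2.57 and -2.35 in WT females (log2 fold change 0.37, SE 0.10, adjusted p = 0.0199, limma). In males it was at 2.07, 2.11, 2.00 and 2.00 in sesB1, against 2.43, 2.28 and 2.29 in WT (log2 fold change -0.29, SE 0.07, adjusted p = 0.0157). The genotypes did not overlap in either sex, and the interaction was 0.65 (standard error 0.12, adjusted p = 0.00112). After quantile normalization the changes were 0.03 in females and -0.01 in males and the interaction was 0.04, none past the threshold (adjusted p = 0.924 to 0.958). The female call was also lost without WT female replicate 1, WT female replicate 2, sesB1 female replicate 1 or sesB1 female replicate 2 (adjusted p = 0.0523 to 0.0911), and the male call without WT male replicate 1 (0.0533).

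SdhBL and COX7AL fell in males. SdhBL, the paralogue of the iron-sulfur subunit, was at 2.29, 2.26, 2.32 and 2.14 in sesB1 males, against 2.52, 2.64 and 2.72 in WT males (log2 fold change -0.37, SE 0.08, adjusted p = 0.0066, limma). In females it was at -2.68, -2.56, -2.52 and -2.14 in sesB1, against -2.41, -2.88 and -2.59 in WT, where the genotypes overlapped (log2 fold change 0.15, adjusted p = 0.537). COX7AL was at 2.57, 2.55, 2.44 and 2.48 in sesB1 males, against 2.86, 2.91 and 2.94 in WT males (log2 fold change -0.39, SE 0.07, adjusted p = 0.00193). Its namesake COX7A, described above, rose in the same arrays. COX7AL was at -3.44, -3.32, -3.54 and -2.44 in sesB1 females, against -3.34, -3.59 and -3.57 in WT females (log2 fold change 0.31, adjusted p = 0.397). Quantile normalization gave -0.07 for SdhBL (adjusted p = 0.671) and 0.02 for COX7AL (adjusted p = 0.882) in males, and neither passed in a joint fit of all 4 groups. The interaction of SdhBL passed at 0.52 (adjusted p = 0.0404) and that of COX7AL did not (0.71, adjusted p = 0.064). SdhBL's interaction was lost when WT female replicate 2 or 3, WT male replicate 2 or 3, or any 1 sesB1 male array was left out (adjusted p = 0.0509 to 0.11).

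ATPsynCF6L, the paralogue of coupling factor 6 of the ATP synthase stalk, was the paralogue that rose in males. It was at 2.77, 2.61, 2.57 and 2.48 in sesB1 males, against 2.28, 2.31 and 2.24 in WT males (log2 fold change 0.33, SE 0.08, adjusted p = 0.0143, limma), with no overlap. In females it was at -2.58, -2.48, -2.57 and -2.24 in sesB1, against -2.76, -2.58 and -2.48 in WT, and did not pass (log2 fold change 0.14, adjusted p = 0.421). COX4L and COX5BL did not pass in either sex, with log2 fold changes of 0.62 and 0.39 in females and -0.14 and -0.22 in males. Their male values turned to 0.38 and 0.77 after quantile normalization.

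Testis genes were lower more often than higher in sesB1 males. Of 20 probesets of testis genes, 11 were lower and none was higher, beside 10.8% of all probesets lower and 11.1% higher. Their median change was -0.30 on the log2 scale. Per-array medians were 2.02 to 2.21 in sesB1 males, against 2.30 to 2.54 in WT males. Those lower by at least 1.5-fold were can, a regulator of meiotic gene expression (0.570 of its WT level), and dj, a protein of the sperm tail (0.580). In females Mst98Ca was 3.12-fold higher in sesB1 (log2 fold change 1.64, SE 0.53, adjusted p = 0.0411, limma), and no other testis probeset passed. The sesB1 females include replicate 4, whose testis median of -2.08 lay above those of the other females. The part of that array in the Mst98Ca call was not tested. The part of the testis genes in the paralogue result was not tested.

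**Figure D5:**
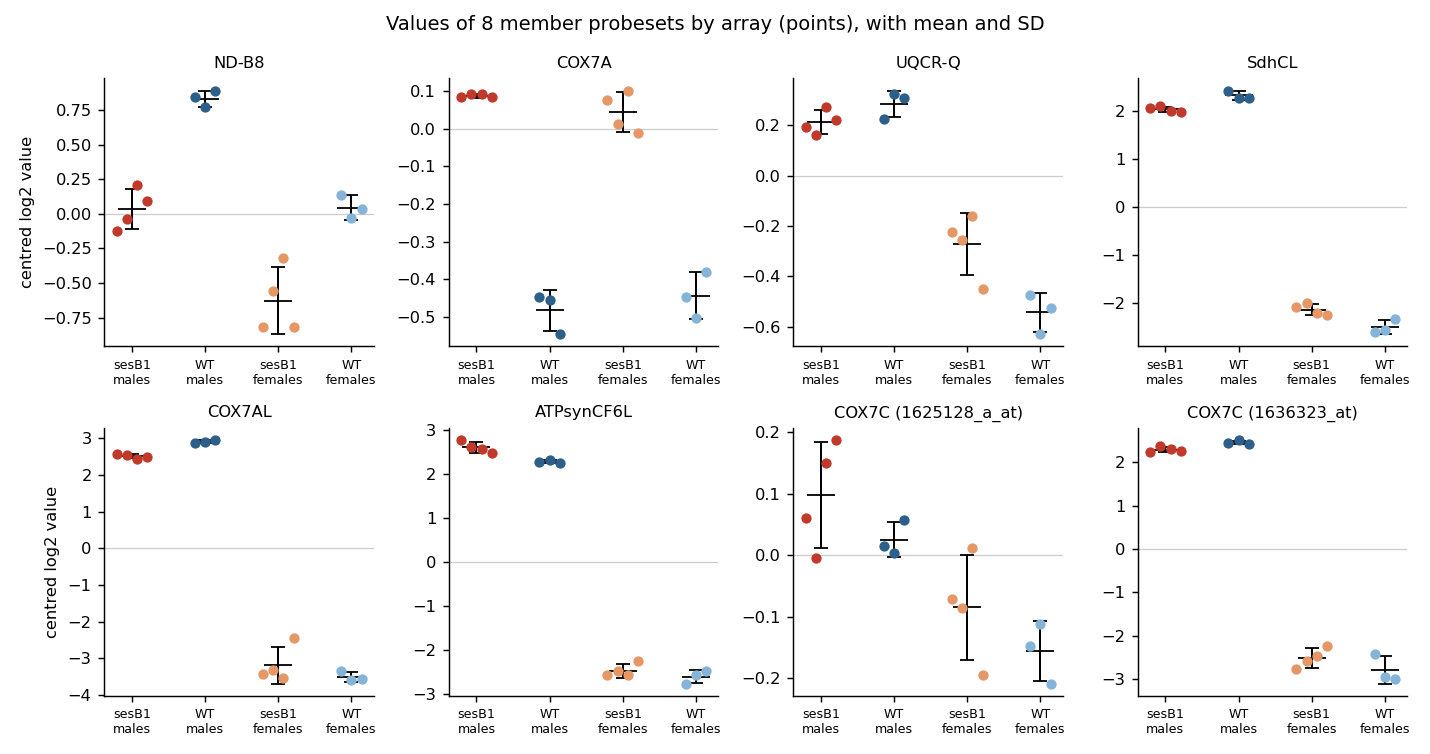
Centred log2 values of 8 member probesets in each array (points), with the mean and SD of each group (bar and whiskers), for sesB1 males, WT males, sesB1 females and WT females; each panel has its own vertical scale. ND-B8 lies lower and COX7A higher in sesB1 arrays of both sexes, SdhCL and COX7AL differ between males by far less than between the sexes, and the 2 COX7C probesets differ in their sex pattern.

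COX7C and COX7B showed that probesets of one gene need not follow each other. One COX7C probeset (of suffix _at) was at 2.44, 2.51 and 2.43 in WT males, against -2.44, -2.95 and -3.00 in WT females, a log2 difference of 5.25. The other (of suffix _a_at) was at 0.02, 0.0041 and 0.06 in WT males, against -0.15, -0.11 and -0.21 in WT females, a log2 difference of 0.18. The first thus had the pattern of the paralogues and the second that of the core. On chromosome 2R the gene after COX7C in the annotation is COX7CL, for which no probeset was listed, and which transcript the first probeset reads was not tested. COX7C was chosen after its values were seen. Leaving this probeset out gave 14 higher and 1 lower core probesets in females and 21 higher and 1 lower in males, as with it. COX7B had 3 probesets, and 1 of them was higher in males (log2 difference 0.24 in sesB1, adjusted p = 0.00395, and 0.26 in WT flies, adjusted p = 0.0191, the WT call being lost without WT female replicate 1 or 2 or WT male replicate 2 or 3), while the others were at 0.10 and -0.10 in sesB1 and -0.01 and 0.06 in WT flies.

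Of 7 probesets for respiratory chain genes that the naming rule leaves out, the same 1 passed in each sex, and it was lower in sesB1. The median log2 fold change of the 7 was 0.06 in females and 0.08 in males. For ox, levy, cype and sun, small subunits of complex III, complex IV and ATP synthase, and for blw, the alpha subunit of ATP synthase, the log2 fold changes lay between 0.01 and 0.14 in females and between -0.0019 and 0.18 in males, with adjusted p of at least 0.236 in females and 0.0888 in males (limma). RFeSP encodes the Rieske protein, an electron-carrying subunit in complex III, and its 2 probesets disagreed. One (of suffix _at) was at -0.06, -0.08, 0.06 and -0.19 in sesB1 females, against 4.95, 4.95 and 4.76 in WT females, and at -0.23, -0.39, -0.56 and -0.23 in sesB1 males, against 4.59, 4.54 and 4.76 in WT males. Its log2 fold change was -4.95 in females (adjusted p = 1.23e-08, limma) and in males it was -4.99 (adjusted p = 2.47e-09). The other (of suffix _a_at) was 0.18 above WT on the log2 scale in sesB1 females (adjusted p = 0.262) and likewise 0.18 in sesB1 males (adjusted p = 0.15). A loss of nearly all signal by 1 probeset thus stood beside no detected change by the other, and which part of the transcript each probeset reads was not examined.

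Assembly factors help to build the complexes but are not part of them. Of 34 listed symbols, 15 had a probeset of their own, so that many such factors were not measured here. In females 5 of 16 probesets were higher and 4 were lower in sesB1, with a median log2 fold change of -0.07, beside 13.4% of all probesets higher and 18.9% lower. In males 10 were higher and 1 was lower, with a median of 0.26, beside 11.1% higher and 10.8% lower. The interaction passed for 8 of the 16, of which 2 were positive and 6 negative, beside 27.6% of all probesets. Ttc19, which acts in complex III assembly, was 2.07-fold higher in sesB1 females (adjusted p = 0.000123) and 1.31-fold higher in sesB1 males (adjusted p = 0.0135, limma). Nubpl, which delivers iron-sulfur clusters to complex I, was 1.78-fold higher by 1 probeset (adjusted p = 0.000266) and at 0.709 of its WT level by the other in females. In males the same probesets also disagreed, at 1.185-fold (adjusted p = 0.0449) and 0.857 of the WT level (adjusted p = 0.0459, limma). Of 2 further testis paralogues outside the rule, knon, a copy of an ATP synthase stalk subunit, was lower in sesB1 males (log2 fold change -0.40), and Cyt-c1L was at -0.05.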

How the data were processed

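Total RNA of whole flies was hybridized to 14 Affymetrix Drosophila 2.0 arrays (4 sesB1 and 3 WT arrays in each sex, grouped by the sample labels). The authors normalized the arrays in Genespring GX. Its version, summarisation method and filters were not given in the sources used here. Values were deposited as log2 signals centred on the median of each probeset over all arrays, so signal over background is not known and the number of arrays limits the precision. Of 265328 values, 30 were spreadsheet date serials and were treated as missing, none in a member. After leaving out 183 control probesets, 18769 were tested. Of these, 13647 had 1 gene symbol, 402 several and 4720 none, and 13544 matched a current gene. Array medians differed by 0.127 within females, 0.0852 within males and 0.265 over all arrays.

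Each sex, each genotype (males minus females) and the interaction were fitted by lmFit and eBayes of limma 3.58.1 (R 4.3.3), with Benjamini-Hochberg adjustment over all probesets tested, and calls needed an adjusted p under 0.05 and no minimum fold. The labels call the samples biological replicates, and no source ties equal numbers to a shared batch. Tables and figures were made with Python 3.11.15, pandas 2.3.3 and matplotlib 3.10.9, and the fit was tested on simulated data. Paralogues were split off by name. The members and gene lists were chosen with earlier results of these data known. In each complex and sex the core probesets with the lowest adjusted p and the largest change were named, with the paralogues of largest sex difference or change, the 3 largest interactions and genes whose probesets disagree. List genes were named where they changed by at least 1.5-fold. COX7C, UQCR-11 and members quoted without array values were named after their values were seen. Alternatives were quantile normalization, median centring, a joint fit, array weights and the replicate number as a block. Student's test, which the study's methods name for its experiments in general, was another. Further ones were probesets with the suffix _at alone, genes in place of probesets, fold thresholds and the omission of arrays. Promoter and protein sequences were not analysed here.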

Additional observations from a re-analysis of the deposited data

Results flagged for a closer look

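In 3 members the change in females differed from that in males by the test of the difference itself (limma, adjusted p under 0.05). The interaction was 0.65 for SdhCL (adjusted p = 0.00112), 0.52 for SdhBL (adjusted p = 0.0404) and 0.34 for UQCR-Q (adjusted p = 0.0265), each positive. None of these 3 passed after quantile normalization, where 1 other core probeset and 3 other paralogues passed with a negative interaction. In 1 of 44 groups of 4 arrays tested among the named members, a single array stood apart by Dixon's criterion: Cyt-c1 was at 0.12 in sesB1 male replicate 2, against 0.23 to 0.24 in the other sesB1 males (a gap of 0.893 of the range). Chance gives about 1 such group in 20.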

How the results depend on the processing

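Of 1031 recomputed values for single named members, 915 kept their direction and side of the threshold, 103 lost and 8 gained a call, and 5 turned round. All 5 did so under quantile normalization: COX4L (0.383), COX5BL (0.770) and COX7AL (0.0230) in males, UQCR-Q in females (-0.0825) and the interaction of UQCR-Q (-0.0186). The cause was not tested. Quantile normalization also left 3 core probesets called in females, with a median of 0.0683, no paralogue called in females, and 47 core probesets called between the sexes in sesB1 and 31 in WT flies. Centring array medians gave 14 core probesets in males, 1 paralogue interaction, and 44 core probesets between the sexes in sesB1 and 32 in WT flies. Without the 4 arrays with transcripts of the other sex, the counts were 2 paralogues in females, 4 core probesets and 3 paralogues in males, 1 paralogue interaction, and 9 core probesets between the sexes in sesB1 and 10 in WT flies. The joint fit gave 23 core probesets and 2 paralogues in females and 17 core probesets and 2 paralogues in males. Array weights gave 4 paralogues in females and 6 paralogue interactions. Student's test gave 9 core probesets in females and 1 paralogue interaction after Benjamini-Hochberg adjustment. Unadjusted, it gave 24 core probesets in females, 40 in males, 8 paralogues in males, 5 paralogue interactions and 26 core probesets between the sexes in WT. The study's methods name Student's test or ANOVA, with Bonferroni correction, for its experiments in general. Its arrays were analysed in Genespring GX with statistical filtering, so these counts do not repeat that analysis. With the suffix _at alone, fewer probesets remain to be counted, and 9 core probesets passed in females, 13 in males and 10 between the sexes in sesB1 flies. At 1.5-fold or more, the counts were 1 core probeset in each sex, 0 paralogues in each sex, 0 core and 1 paralogue interactions, and 2 core probesets between the sexes in sesB1 and 4 in WT flies. At 2-fold or more, they were 0 in each sex and for the interactions, and 1 core probeset between the sexes in each genotype.

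Whether equal replicate numbers pair the arrays was not settled. Correlations of their deviations from the group means were 0.0896, -0.115 and -0.146 between the genotypes in females and -0.163, -0.174 and 0.0456 in males. Between arrays of unlike number they ran from -0.201 to 0.194 in females and from -0.311 to 0.269 in males. Deviations within a small group are bound to cancel, so such correlations cannot show that pairing was absent. With the replicate number as a block, 13 core probesets and 2 paralogues passed in females, 4 core probesets and 2 paralogues in males, and 8 core probesets between the sexes in sesB1 and 11 in WT flies.

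Leaving out 1 array at a time gave 3 to 21 core probesets in females and 9 to 21 in males, 0 to 2 paralogues in females and 3 to 5 in males, 0 to 2 core and 1 to 7 paralogue interactions (7 without sesB1 female replicate 3, and 1 without WT male replicate 2 or any 1 sesB1 male), and 8 to 25 core probesets between the sexes in sesB1 and 7 to 14 in WT flies. The paralogue sex calls stayed at 20 to 21 in sesB1 and 21 in WT flies, and the core medians at 0.130 to 0.216 in females and 0.173 to 0.233 in males. Centred values hold no brightness, so dim probesets could not be set aside.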
